A study of Mus musculus with 6 samples.

Results

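The RNAs described here are the abundant long noncoding RNAs (lncRNAs) of the injured mouse spinal cord. They are the genes typed lncRNA in the deposited count table whose level averaged at least 10 CPM (the gene's count scaled to equal library totals) over all 6 libraries. The rule was met by 117 of 10049 lncRNA genes, in a table of 56859 genes. A count was found for 6128 lncRNA genes, so the abundant ones made up 1.909% of those detected and held 70.953% of all lncRNA counts. They were selected on measured level over both groups together, so the levels are a description, and the difference between the groups was not used to choose them. Just inside the limit were Snhg18 at 10.07 CPM, E530011L22Rik at 10.14 CPM and A330102I10Rik at 10.21 CPM. Just outside it were 2810001G20Rik and A230056P14Rik, both at 9.82 CPM, and Gm13293 at 9.72 CPM.

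LncRNAs are transcripts longer than the small RNAs that carry no long reading frame. Some build nuclear bodies, some act in cis on an imprinted locus or on the X chromosome, some bind proteins or microRNAs in the cytoplasm, and some serve mainly as the precursor of a microRNA or a small nucleolar RNA (snoRNA) that is cut from them. Many are made chiefly in neurons, and bulk spinal cord mixes neurons with glia, vessel cells, meninges and, after injury, cells from blood.

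RNA was taken from spinal cord of wild-type (WT) mice 6 weeks after a contusion at thoracic level T10. The 3 libraries here called AZ876 replicates 1 to 3 came from injured mice given AZ876 at 5 mg/kg into the peritoneum once a day for 1 week after the injury. AZ876 activates the liver X receptors, nuclear receptors that switch on cholesterol export genes. The 3 injury libraries came from mice with the same contusion, and control animals received the solvent alone, per the labels' protocols. No uninjured group was analysed here, and strain, sex and age are not in the labels used here.

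Library totals ran between 14067649 and 20211175 counts, and the lowest count of any of the 117 in a library was 46, for C130021I20Rik and for Gm20559. Levels below are CPM scaled by the trimmed mean of M-values (TMM), and triplets are given in the order of replicates 1, 2 and 3. AZ876 replicate 1 stood apart from the other two of its group on the first principal component of all genes tested (55.4% of the variance): the AZ876 libraries scored -7.2, 44.2 and 49.5, and the injury libraries -40.6, -52.3 and 6.3. Summed oligodendrocyte markers lay between 21187 and 29436 CPM and summed neuron markers between 2056 and 6130 CPM, so defining markers of spinal cord were present in every library.

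Sequences bear on the results in 4 ways, each shown as a set. The first is of microRNAs held inside the abundant lncRNAs, which link hosts on different chromosomes. A total of 59 microRNA genes lay inside 22 of the lncRNAs, and 50 of them matched a mature entry in RefSeq (GRCm38.p6), giving 93 mature sequences with 75 distinct seeds. The sequences below are 5′ to 3′, with the seed, bases 2 to 8, in capitals. They are shown because Gm3764, C130071C03Rik and Mir9-3hg share miR-9, Mir99ahg and Mir100hg share the miR-99/100 seed and miR-125b, and Dleu2 holds the miR-15/16 pair.
miR-9-5p: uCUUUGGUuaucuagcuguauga
miR-99a-5p: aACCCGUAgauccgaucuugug
miR-100-5p: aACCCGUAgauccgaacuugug
miR-125b-5p: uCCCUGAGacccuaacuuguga
let-7c-5p: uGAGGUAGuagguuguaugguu
miR-15a-5p: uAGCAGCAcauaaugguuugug
miR-16-5p: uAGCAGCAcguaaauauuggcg
miR-770-5p: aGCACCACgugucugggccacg
miR-370-3p: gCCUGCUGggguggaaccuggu
miR-134-5p: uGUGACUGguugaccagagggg
The last 3 come from Meg3, Rian and Mirg, which lie one after another on chromosome 12. The mature microRNAs themselves were not measured by these libraries.

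The second set is of promoters at that locus, since Meg3, Rian and Mirg shared their highest library and their 2 lowest. RefSeq promoter windows, from 250 bases before to 50 bases after a start, were found for 77 of the 117 lncRNAs, 92 windows in all, since some have more than 1 start. The 4 motifs searched, on both strands, were TGACGTCA for the cyclic AMP response element (CRE), TATAAA for the TATA box, CCAAT for the box of that name and GGGCGG for the GC box. Capitals mark matches. The Meg3 window is chr12:109540746-109541045, plus strand, and the Rian window is chr12:109603695-109603994, plus strand, both GRCm38.p6.
Meg3: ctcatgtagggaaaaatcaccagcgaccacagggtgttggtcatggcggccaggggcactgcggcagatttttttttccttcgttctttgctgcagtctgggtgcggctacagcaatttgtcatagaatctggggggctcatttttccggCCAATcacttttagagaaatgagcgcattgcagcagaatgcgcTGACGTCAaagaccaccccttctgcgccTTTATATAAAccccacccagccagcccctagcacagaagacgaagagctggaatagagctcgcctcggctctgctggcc
Rian: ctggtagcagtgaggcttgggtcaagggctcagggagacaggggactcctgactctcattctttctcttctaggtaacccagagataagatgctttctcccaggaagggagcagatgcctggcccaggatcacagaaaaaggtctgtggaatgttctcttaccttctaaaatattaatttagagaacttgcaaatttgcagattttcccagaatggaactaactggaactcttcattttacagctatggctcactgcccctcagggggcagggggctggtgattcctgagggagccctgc
The Meg3 window held a CRE, a CCAAT box and 2 overlapping TATA matches, 1 on each strand, with 13 CG pairs. The Rian window held none of the 4 motifs and 0 CG pairs. The CRE was in 4.35% of the lncRNAs' windows and in 1.79% of all 32851 windows. The TATA box was in 16.3% of the lncRNAs' windows and 13.6% of all, the CCAAT box in 51.1% of theirs and 37.4% of all, and the GC box in 51.1% of theirs and 35.7% of all. A match is a description of letters and not evidence of binding.

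The third set is from RNAs known for binding partners in the cytoplasm. Norad carries repeated UGUANAUA elements, which Pumilio proteins bind, and Oip5os1 (Cyrano) carries a long match to miR-7, which it is known to send to decay. In each stretch below the element or the match to the miR-7 seed is in capitals, searched on the transcript's own strand, and in miR-7a-5p the seed is in capitals. Positions count from the first base of the GENCODE M21 transcript.
Norad, bases 2419 to 2458: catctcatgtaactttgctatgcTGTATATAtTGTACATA
Oip5os1, bases 2936 to 2959: caacaaaatcaccaatGTCTTCCa
miR-7a-5p: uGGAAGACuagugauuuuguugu
The Norad transcript of 4915 bases (GENCODE M21) held 11 such elements, or 2.24 per 1000 bases, whereas 18209 lncRNA genes together held 0.107 per 1000 bases and 11% of them held any. Oip5os1 held 2 matches to the miR-7 seed in 8300 bases. The lncRNA genes together held 0.101 per 1000 bases, and 10.9% of them held any. Other abundant lncRNAs held as many or more, among them Xist and Kcnq1ot1 with 4 each and Meg3, Rian and Norad with 2 each, in transcripts of differing length. Cdr1os, a transcript of 19658 bases from the locus of the circular RNA Cdr1as, held 125; its counts give no value for the circular RNA.

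The fourth set is of transcription starts of snoRNA hosts, many of which are known to begin with a run of pyrimidines, as ribosomal protein genes do. The 40 bases centred on the RefSeq start are shown for 2 hosts, with the run in capitals.
Snhg1, chr19:8723467-8723506, plus strand: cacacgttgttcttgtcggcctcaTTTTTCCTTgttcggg
Snhg12, chr4:132308658-132308697, plus strand: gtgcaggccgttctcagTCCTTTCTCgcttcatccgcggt
A run of at least 8 pyrimidines that overlapped the 10 bases either side of the start was found in 4 of 16 windows (25%) of the 13 abundant lncRNAs with a window that hold a snoRNA gene. It was found in 20.7% of the windows of all abundant lncRNAs and in 14% of all windows.

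No abundant lncRNA was called different between AZ876 and injury at an adjusted p under 0.05, by edgeR's quasi-likelihood test, adjusted by Benjamini-Hochberg over 17599 genes. All 117 passed the filter on low counts. The same test called 0 genes of any kind (0.0%). At an unadjusted p under 0.05, 7 of the 117 were higher and 7 lower with AZ876, where 7.98% of all genes tested were higher and 6.74% lower. DESeq2 called 178 genes (1.01%) and limma-voom 0 (0.0%), and neither called an abundant lncRNA. The median log2 fold change over the 117 was -0.01, with 58 above 0 and 59 below, beside 0.004 over all genes. The labels do not say that replicates were separate animals, so these p-values measure the spread between samples. With 3 libraries a group, a p that misses the threshold does not show that the levels were alike.

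The 3 AZ876 libraries all lay above the 3 injury libraries for 13 of the 117 and all below for 6, where 10.2% of all genes lay above in this way and 8.64% below. Levels were steadier over libraries than those of rarer lncRNAs. The median ratio of the highest to the lowest library was 1.67 in the 117, against 2.51 in 1289 other lncRNAs tested, which were selected for lower counts, and 1.47 in 10970 coding genes of at least 10 CPM. The ratio was under 1.5 for 43 of the 117 and over 3 for 8.

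**Figure D1:**
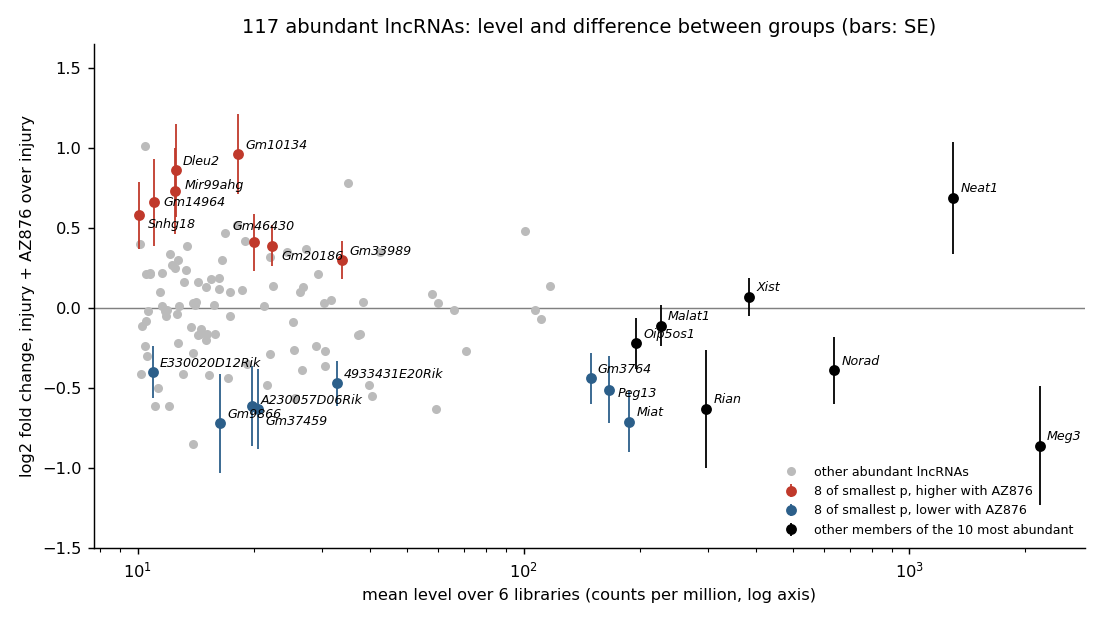
Log2 fold change, injury + AZ876 over injury (vertical axis), against the mean CPM over 6 libraries (horizontal log axis) for 117 lncRNAs; bars are SE from edgeR. Meg3 and Neat1, the 2 most abundant, lie on opposite sides of 0, at -0.86 and 0.69, and none of the points passed the adjusted threshold.

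Meg3, a maternally expressed RNA of the imprinted Dlk1-Dio3 locus that is abundant in neurons, was the most abundant lncRNA. It measured 2471, 1135 and 1035 CPM in AZ876 libraries, against 3449, 3079 and 1874 CPM in injury libraries. AZ876 replicates 2 and 3 were below every injury library, while replicate 1 lay among them, so the groups overlapped. The log2 fold change was -0.86 ± 0.37 (SE; unadjusted p = 0.053, adjusted p = 0.342, edgeR). Without AZ876 replicate 3 it was -0.63, and without AZ876 replicate 1 it was -1.37 with an adjusted p of 0.048. In that fit 64 genes (0.351%) were called higher and 299 (1.64%) lower. The lower ones included 3 abundant lncRNAs, Meg3, Rian and Gm40841, of which Gm40841 is named here after its values were seen. No other fit that left out 1 library called any of the 117.

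Rian, which holds snoRNAs and microRNAs and lies downstream of Meg3, measured 390, 170 and 139 CPM in AZ876 libraries, against 417, 372 and 295 CPM in injury libraries. Mirg, the microRNA host after it, measured 31.9, 14.5 and 15.5 CPM in AZ876 libraries, against 38.2, 24.1 and 29.1 CPM in injury libraries. In both, as in Meg3, AZ876 replicates 2 and 3 were the lowest libraries and AZ876 replicate 1 was above at least 1 injury library. Their log2 fold changes were -0.63 ± 0.37 for Rian and -0.56 ± 0.33 for Mirg (SE; adjusted p = 0.409 and 0.407, edgeR). Without AZ876 replicate 1 the log2 fold change of Rian was -1.23 with an adjusted p of 0.0444, and that of Mirg -1.02. That of Rian was -0.37 without AZ876 replicate 3, and that of Mirg -0.37 without AZ876 replicate 2 and -0.36 without injury replicate 1. The ratio of Rian to Meg3 was 0.158, 0.15 and 0.135 in AZ876 libraries and 0.121, 0.121 and 0.157 in injury libraries. Of the 4 coding genes of the locus tested, Begain alone reached an unadjusted p under 0.05, with 97.6, 60.1 and 50.5 CPM in AZ876 libraries and 146, 136 and 93.1 CPM in injury libraries. The growth factor-like gene Dlk1 measured 42.7, 20.4 and 16 CPM in AZ876 libraries and 38.5, 38.1 and 31.9 CPM in injury libraries.

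Summed neuron markers were lowest in AZ876 replicates 2 and 3, as Meg3, Rian and Mirg were. The sum was highest in injury replicate 2, and those RNAs in injury replicate 1. The summed level of 12 of 12 neuron markers was 4549, 2983 and 2056 CPM in AZ876 libraries, against 6080, 6130 and 4730 CPM in injury libraries, and 6 of the 12 were lower at an unadjusted p under 0.05. The sums of the groups did not overlap. With each marker weighted equally, the mean log2 level relative to the 6 libraries was 0.25, -0.49 and -1.0 in AZ876 libraries. In injury libraries it was 0.57, 0.54 and 0.12, so by this measure the groups overlapped (exact permutation p = 0.2). Set against the summed level, Meg3 stood at 0.543, 0.38 and 0.503 in AZ876 libraries and 0.567, 0.502 and 0.396 in injury libraries, which overlap. The part of neuron number in the level of Meg3 was not tested, and in bulk tissue fewer neurons and less RNA per neuron cannot be told apart.

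**Figure D2:**
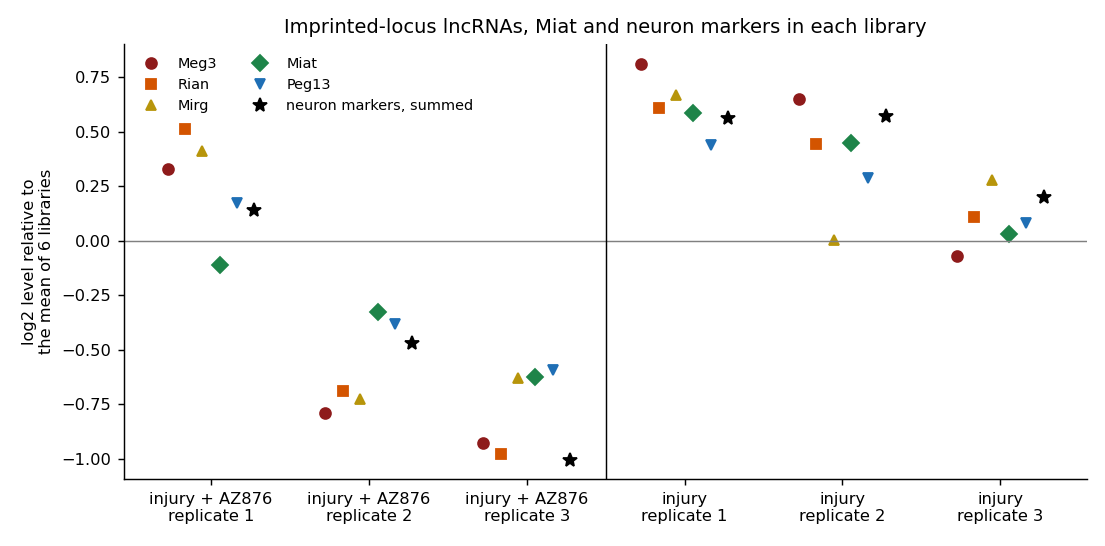
Log2 level of Meg3, Rian, Mirg, Miat, Peg13 and the sum of 12 neuron markers in each of the 3 injury + AZ876 and 3 injury libraries (horizontal axis), relative to the mean over the 6 libraries (vertical axis); each point is 1 library. AZ876 replicates 2 and 3 hold the lowest values of all 6 quantities, while AZ876 replicate 1 lies above at least 1 injury library for Meg3, Rian, Mirg and Peg13 and below all 3 for Miat and the neuron markers.

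Of 8 RNAs of imprinted loci tested, 6 were among the abundant lncRNAs. All 6 had a log2 fold change below 0, with a median of -0.55, beside -0.01 over all 117. Meg3, Rian and Mirg belong to the same locus, so the 6 are not separate observations. Kcnq1ot1 was at -0.05, and between -0.19 and 0.07 when 1 library was left out. Over the 8, H19 was higher and Peg13 lower at an unadjusted p under 0.05. H19, an imprinted RNA of fetal tissues and too rare here to count among the abundant, measured 20.5, 13 and 5.48 CPM in AZ876 libraries, against 6.36, 3.83 and 6.5 CPM in injury libraries (log2 fold change 1.22 ± 0.46 SE; unadjusted p = 0.03, edgeR). Airn, the other rare one, had a log2 fold change of 0.03. Peg13, an imprinted RNA inside the coding gene Trappc9, measured 182, 124 and 107 CPM in AZ876 libraries, against 219, 197 and 171 CPM in injury libraries. Here too only AZ876 replicate 1 reached the injury range (log2 fold change -0.51 ± 0.21 SE; unadjusted p = 0.0409, edgeR). Trappc9, on the same strand, measured 69.3, 61.9 and 53.9 CPM in AZ876 libraries and 76.1, 76.4 and 66.9 CPM in injury libraries. Snhg14, the long transcript of the Prader-Willi and Angelman locus that runs antisense to Ube3a, measured 45.7, 31.7 and 21.5 CPM in AZ876 libraries and 44.6, 59.3 and 40.4 CPM in injury libraries. Kcnq1ot1, which silences its imprinted cluster on the paternal chromosome, measured 20.2, 14.5 and 16.5 CPM in AZ876 libraries and 20.5, 15.8 and 16.6 CPM in injury libraries.

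Miat (Gomafu), a nuclear RNA of neurons known to bind splicing factors, had the smallest p of the lncRNAs. It measured 167, 144 and 117 CPM in AZ876 libraries, against 271, 246 and 184 CPM in injury libraries. Every AZ876 library was below every injury library, AZ876 replicate 1 included. The log2 fold change was -0.71 ± 0.19 (SE; unadjusted p = 0.00545, adjusted p = 0.33, edgeR), and between -0.86 and -0.59 when 1 library was left out. Set against the neuron marker sum, Miat stood at 0.0366, 0.0484 and 0.0569 in AZ876 libraries and 0.0446, 0.0402 and 0.0389 in injury libraries, and these ratios overlapped between the groups. Its position in the deposited table was chromosome 5, 112361094 to 112377261, minus strand, in a build the sources used here do not name.

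Of 10 neural and developmental lncRNAs tested, 5 were abundant, and Miat was the only one of these 5 with an unadjusted p under 0.05. Sox2ot, which contains the gene of the stem cell factor Sox2, measured 62.3, 66.3 and 52.9 CPM in AZ876 libraries and 62.0, 35.8 and 80.2 CPM in injury libraries. Its 3 injury libraries spanned more than its AZ876 libraries did. Pvt1, the neighbour of Myc, averaged 9.55 ± 0.348 CPM with AZ876 and 11.3 ± 1.55 CPM in injury (SD, n = 3 each). Rmst, a partner of Sox2 in neurogenesis, averaged 9.87 ± 0.859 CPM with AZ876 and 10.6 ± 2.96 CPM in injury.

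Neat1, the scaffold of the nuclear bodies called paraspeckles, was the second most abundant lncRNA and had a fold change of the opposite sign to Meg3. It measured 1212, 1486 and 2133 CPM in AZ876 libraries, against 1127, 536 and 1329 CPM in injury libraries. Injury replicate 2 stood apart as the lowest, and AZ876 replicate 1 was below injury replicate 3. The log2 fold change was 0.69 ± 0.35 (SE; adjusted p = 0.367, edgeR), 0.39 without injury replicate 2 and 0.44 without AZ876 replicate 3. Malat1, its neighbour on chromosome 19 and a constituent of nuclear speckles, measured 207, 214 and 234 CPM in AZ876 libraries and 247, 257 and 204 CPM in injury libraries, with overlap. The ratio of Neat1 to Malat1 was 5.86, 6.95 and 9.1 in AZ876 libraries and 4.56, 2.08 and 6.52 in injury libraries. Meg3 exceeded Neat1 in every injury library, by 3.06, 5.75 and 1.41 times, and in AZ876 replicate 1, by 2.04 times, while the other two AZ876 ratios were 0.764 and 0.485.

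Of 19 paraspeckle and speckle protein genes tested, 1 was higher and 0 lower at an unadjusted p under 0.05, with a median log2 fold change of 0.1. Nono, a core paraspeckle protein that binds Neat1, measured 153, 155 and 154 CPM in AZ876 libraries and 132, 128 and 145 CPM in injury libraries. Summed macrophage and monocyte markers, with 5 of 10 higher at an unadjusted p under 0.05, were 3392, 6010 and 10097 CPM in AZ876 libraries and 2120, 2891 and 4722 CPM in injury libraries. AZ876 replicate 3 had the highest macrophage sum and the highest Neat1, while the lowest macrophage sum was in injury replicate 1 and the lowest Neat1 in injury replicate 2. Summed fibroblast and meninges markers, with 6 of 10 higher at that threshold, were 2485, 3555 and 2913 CPM in AZ876 libraries and 1703, 824 and 2124 CPM in injury libraries. Summed Schwann cell markers, with 6 of 8 higher, were 3518, 3715 and 3225 CPM in AZ876 libraries and 2758, 1664 and 2669 CPM in injury libraries. Both of these sums were lowest in injury replicate 2, as Neat1 was and as 27.2% of all genes tested were. Summed microglia markers were 697, 960 and 1115 CPM in AZ876 libraries and 657, 542 and 913 CPM in injury libraries. At that threshold 1 of the 8 microglia markers was higher and 1 lower, and their sum ordered the libraries as Neat1 did. With each microglia marker weighted equally on the log2 scale, the order differed from that of Neat1. Injury replicate 3 (0.19) then stood above AZ876 replicate 2 (0.17). Summed red cell markers, with 2 of 5 higher, were 3200, 4652 and 17206 CPM in AZ876 libraries and 1809, 4296 and 2692 CPM in injury libraries. The part of these cell types in the level of Neat1 was not tested.

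**Figure D3:**
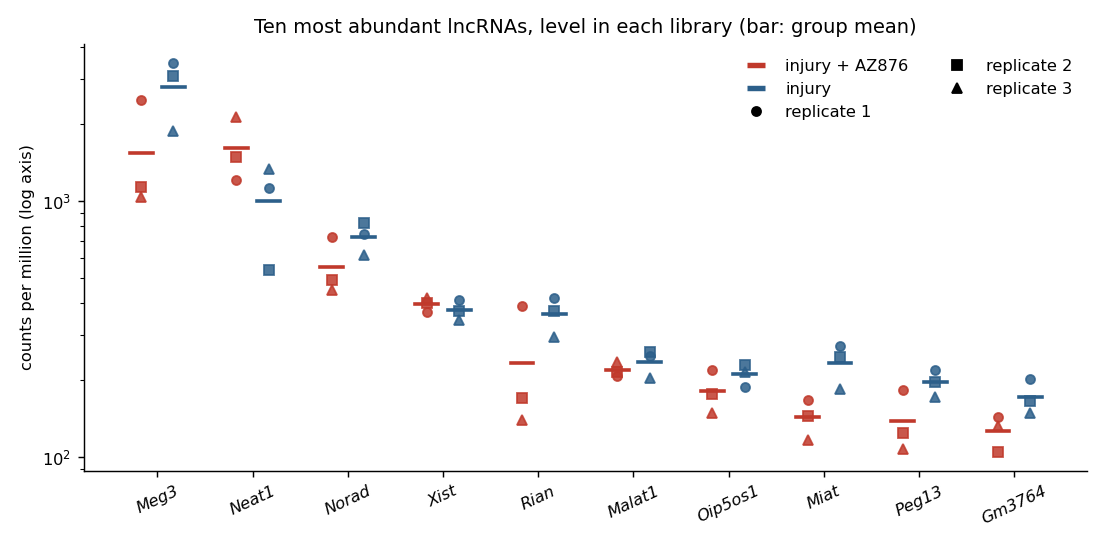
CPM (vertical log axis) of the 10 most abundant lncRNAs in each library, injury + AZ876 to the left of injury for each gene; the bar is the group mean and the symbol the replicate number. Xist and Malat1 span less than the others, and Miat and Gm3764 are the only 2 of the 10 whose groups do not overlap.

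Norad is a cytoplasmic RNA that holds Pumilio proteins away from their targets. Per length of all annotated exons of a gene joined, it was the most abundant of the 115 with a known exon length. It stood at 130 CPM per 1000 exon bases, ahead of Meg3 at 120 and Neat1 at 62.8. The joined exons of Meg3 spanned 18089 bases and its longest transcript 14548, so the order of Norad and Meg3 depends on the length used. Norad measured 722, 493 and 449 CPM in AZ876 libraries, against 742, 819 and 617 CPM in injury libraries. AZ876 replicates 2 and 3 were the lowest, and the groups overlapped through AZ876 replicate 1 (log2 fold change -0.39 ± 0.21 SE; adjusted p = 0.382, edgeR). Leaving out AZ876 replicate 1 gave -0.63, and leaving out AZ876 replicate 3 gave -0.26. Oip5os1 measured 218, 177 and 148 CPM in AZ876 libraries and 187, 229 and 215 CPM in injury libraries. Cdr1os, named for its miR-7 matches after its values were seen, measured 30, 12.2 and 8.33 CPM in AZ876 libraries and 24.3, 20.1 and 19.9 CPM in injury libraries. Within the AZ876 group its range was wider than in the injury group, from AZ876 replicate 1, the highest of all 6, down to AZ876 replicate 3.

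Xist, which coats and silences one X chromosome in female cells, was among the steadiest. It measured 368, 399 and 418 CPM in AZ876 libraries, against 411, 372 and 344 CPM in injury libraries, a ratio of 1.22 between the highest and lowest library. Ftx, a microRNA host of the X inactivation centre, measured 35.0, 18.3 and 16 CPM in AZ876 libraries and 35.3, 28.0 and 19.4 CPM in injury libraries. Firre, an X-linked RNA of nuclear organisation named here after its values were seen, measured 95.3, 110 and 119 CPM in AZ876 libraries and 119, 126 and 96.9 CPM in injury libraries.

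Of 15 listed snoRNA hosts tested, 9 were abundant, 6 with a log2 fold change above 0 and 3 below, with a median of 0.03 over the 9. Gas5, whose introns hold snoRNAs and whose spliced RNA is turned over by nonsense-mediated decay, measured 100, 102 and 118 CPM in AZ876 libraries and 109, 111 and 102 CPM in injury libraries. Its highest library exceeded its lowest by 1.17 times, and the log2 fold change was -0.01 ± 0.11 (SE). Snhg1, Snhg5, Snhg8, Snhg12, Snhg17, Snhg20 and Zfas1 had fold changes between -0.29 and 0.21 on the log2 scale. Ribosomal protein genes, known to share the pyrimidine run, had 0 of 78 at an unadjusted p under 0.05 and a median log2 fold change of 0.09. Among 15 genes of nonsense-mediated decay, 0 were higher and 1 was lower at that threshold. Snhg18 was the only one of the 9 with an unadjusted p under 0.05, and measured 10.6, 13.1 and 12.5 CPM in AZ876 libraries and 8.56, 6.35 and 9.3 CPM in injury libraries. Its groups did not overlap (log2 fold change 0.58 ± 0.21 SE; unadjusted p = 0.0226, edgeR), while Sema5a, the guidance gene read from the opposite strand beside it, averaged 46.5 CPM with AZ876 and 47.1 CPM in injury.

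**Figure D4:**
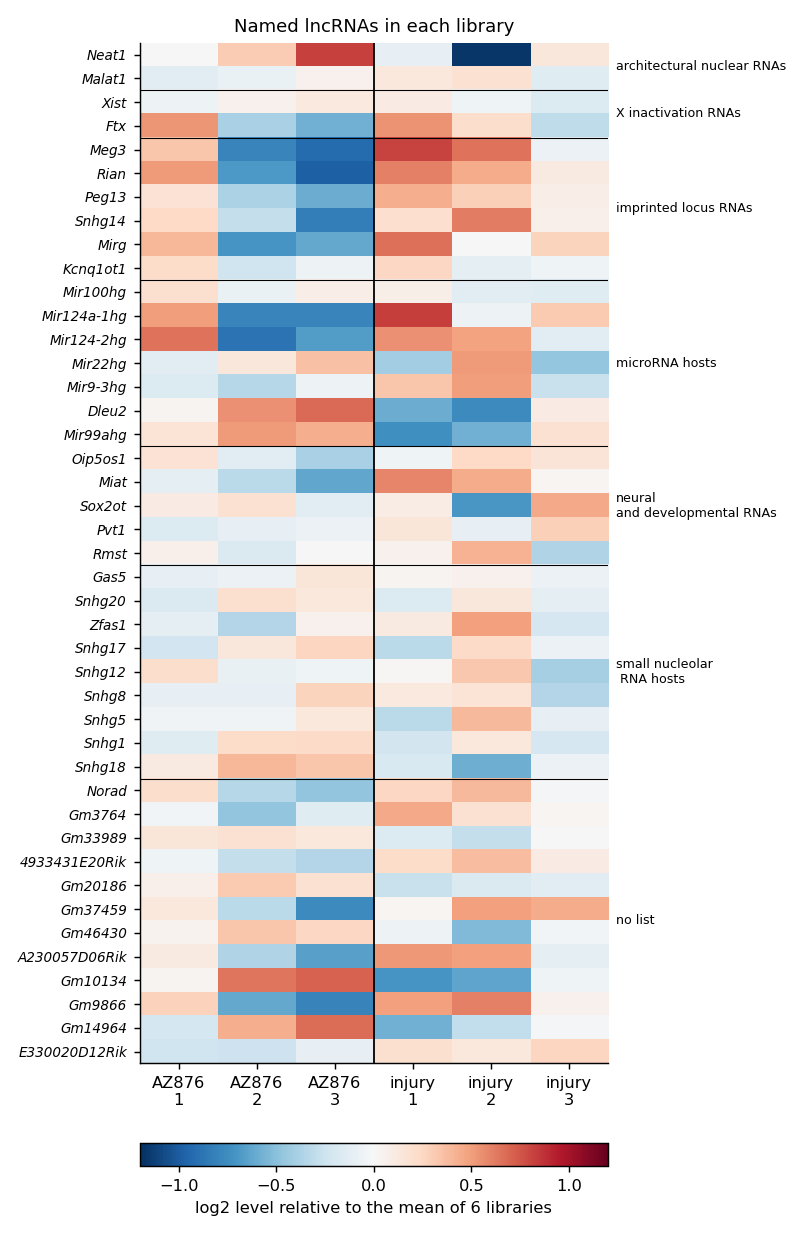
Log2 level of 43 named lncRNAs (rows, grouped by list) in each library, relative to the mean over the 6 libraries, with the 3 injury + AZ876 libraries left of the line and the 3 injury libraries right of it; red is above and blue below the mean. The rows of Meg3, Rian, Mirg and the miR-124 hosts are blue in AZ876 replicates 2 and 3 and red in AZ876 replicate 1, and most snoRNA hosts are pale throughout.

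Over the 22 abundant lncRNAs with a microRNA gene inside, 8 had a log2 fold change above 0 and 14 below, with a median of -0.26. Mir124a-1hg and Mir124-2hg, hosts of the neuronal miR-124, spanned ratios of 3.11 and 3.01 between libraries. Mir124a-1hg measured 76.8, 31.1 and 31.1 CPM in AZ876 libraries and 96.6, 51.7 and 67.2 CPM in injury libraries. Mir124-2hg measured 31.5, 10.5 and 12.3 CPM in AZ876 libraries and 29.3, 27.9 and 18.2 CPM in injury libraries. Both were lowest in AZ876 replicates 2 and 3, where the neuron marker sum was also lowest; its part in their levels was not tested.

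The 3 hosts of miR-9, a microRNA of neural progenitors, had fold changes of both signs. Gm3764, which holds Mir9-1, measured 143, 105 and 132 CPM in AZ876 libraries, against 201, 166 and 149 CPM in injury libraries. The groups did not overlap (log2 fold change -0.44 ± 0.16 SE; unadjusted p = 0.0275, edgeR). Mir9-3hg averaged 13.1 ± 1.28 CPM with AZ876 and 17.5 ± 4.68 CPM in injury (SD, n = 3 each). C130071C03Rik, which holds Mir9-2, averaged 23.5 ± 3.73 CPM with AZ876 and 21.4 ± 3.26 CPM in injury.

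Of 12 listed microRNA hosts tested, 4 were higher and 0 lower at an unadjusted p under 0.05. The shares over all genes tested were 7.98% higher and 6.74% lower. Among the 4 hosts, 2 were abundant lncRNAs, Dleu2 and Mir99ahg. Over the 22 abundant lncRNAs with a microRNA gene inside, listed or not, 2 were higher and 2 lower at that threshold. The lower ones were Gm3764 and A230057D06Rik. Dleu2, host of miR-15a and miR-16, measured 12.0, 17.4 and 19.1 CPM in AZ876 libraries, against 7.63, 6.72 and 12.6 CPM in injury libraries. Injury replicate 3 alone reached the AZ876 range (log2 fold change 0.86 ± 0.29 SE; unadjusted p = 0.0188, edgeR). Mir99ahg, host of miR-99a, let-7c and miR-125b, measured 13.4, 17.2 and 16.3 CPM in AZ876 libraries, against 6.95, 7.82 and 13.6 CPM in injury libraries. Injury replicate 3 lay just above AZ876 replicate 1 (log2 fold change 0.73 ± 0.27 SE; unadjusted p = 0.0294, edgeR). Mir100hg, whose miR-100 and miR-125b share those seeds, measured 134, 111 and 124 CPM in AZ876 libraries and 123, 107 and 106 CPM in injury libraries. Mir22hg measured 14.4, 17.4 and 20.3 CPM in AZ876 libraries and 11.7, 22.7 and 11.3 CPM in injury libraries.

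Among lncRNAs without a settled role, Gm10134 had the largest fold change of those with an unadjusted p under 0.05. It measured 17.4, 26.8 and 28.1 CPM in AZ876 libraries, against 10.2, 10.8 and 16.3 CPM in injury libraries. The groups did not overlap, though AZ876 replicate 1 and injury replicate 3 were close (log2 fold change 0.96 ± 0.25 SE; unadjusted p = 0.00582, adjusted p = 0.33, edgeR). It lies on chromosome 2 at 28396107 to 28397785 of the deposited table, and its nearest coding gene, the glycosyltransferase Gbgt1, averaged 7.38 CPM with AZ876 and 4.48 CPM in injury. Gm46430 measured 20.2, 24.8 and 23.5 CPM in AZ876 libraries and 18.8, 13.5 and 19.2 CPM in injury libraries. Its nearest coding gene, the antigen-trimming peptidase Erap1, measured 25.9, 34.9 and 37.3 CPM in AZ876 libraries and 21.5, 19.4 and 27.7 CPM in injury libraries. Gm33989 was tight within each group, at 37.2, 38.2 and 36.7 CPM with AZ876 and 30, 27.6 and 33.6 CPM in injury. Gm9866 had a log2 fold change of -0.72 ± 0.31 (SE), of -1.15 without AZ876 replicate 1 and of -0.51 without AZ876 replicate 3. A230057D06Rik, which holds genes of the miR-344 family and has the imprinted gene Ndn as its nearest coding gene, had one of -0.61 ± 0.25 (SE). E330020D12Rik measured 9.1, 9.06 and 10.1 CPM in AZ876 libraries and 12.5, 11.9 and 13.1 CPM in injury libraries, with no overlap.

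Outside the rule for naming, Cerox1 and Gm42047 were added after their values were seen. Cerox1, an RNA known to raise the activity of mitochondrial complex I, measured 58.4, 72.9 and 61.6 CPM in AZ876 libraries and 79.7, 75.3 and 78.0 CPM in injury libraries, with no overlap. Gm42047 measured 22.4, 43.3 and 68.5 CPM in AZ876 libraries and 16.9, 30.7 and 30.6 CPM in injury libraries, and spanned a ratio of 4.06. The unadjusted p was 0.0522 for Cerox1 and 0.0881 for Gm42047 (edgeR).

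A lone lncRNA, Gm20559, had a log2 fold change over 1 in size, and it is named here after its values were seen. It measured 11.1, 15.3 and 15.4 CPM in AZ876 libraries and 8.12, 2.42 and 10.3 CPM in injury libraries. Injury replicate 2 was the low library, as it was for 24 of the 117 lncRNAs (20.5%) and for 27.2% of all genes tested. AZ876 replicates 2 and 3 were the lowest 2 libraries for 29 lncRNAs (24.8%) and the highest 2 for 26 (22.2%), where the shares over all genes were 20.6% and 20.1%.

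Many of these lncRNAs start or lie beside a coding gene. In the deposited coordinates 22 stood head to head with a coding gene within 1000 bases, 31 overlapped one on the opposite strand, 7 overlapped one on the same strand, and 81 overlapped none. The strand setting of the counting is not given in the sources used here, so reads of overlapping pairs cannot be told apart. Of 20 head-to-head partners tested, 15 had a fold change of the same sign as the lncRNA. That count includes log2 fold changes near 0, such as 0.05 for AI480526 and 0.02 for its partner Setd1b. Whether other neighbouring genes share a sign less often was not tested. C130021I20Rik, named here after its values were seen, had the widest span of the 117, a ratio of 9.76 between libraries. It measured 20.2, 3.23 and 6.23 CPM in AZ876 libraries and 31.6, 12.1 and 9.49 CPM in injury libraries. Lmx1b, the homeobox gene of dorsal horn and serotonergic neurons head to head with it, measured 15.3, 2.04 and 4.25 CPM in AZ876 libraries and 26.4, 11.6 and 6.31 CPM in injury libraries. The pair had the same lowest and highest library. Gm20186 measured 23.1, 27.6 and 25.2 CPM in AZ876 libraries, against 18.3, 19.6 and 20.2 CPM in injury libraries, with no overlap. Its partner Lsm8, a subunit of the ring that binds U6 RNA, averaged 17.3 CPM with AZ876 and 14.5 CPM in injury.

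Among overlapping pairs on opposite strands, 4933431E20Rik measured 31.1, 26.4 and 25.2 CPM in AZ876 libraries, against 37.8, 41.9 and 34.7 CPM in injury libraries. The groups did not overlap (log2 fold change -0.47 ± 0.14 SE; unadjusted p = 0.00986, edgeR). Gstm5, a glutathione transferase gene across from it, measured 55.6, 44.7 and 50.1 CPM in AZ876 libraries and 70.5, 77.7 and 53.3 CPM in injury libraries. Gm37459 had a log2 fold change of -0.63 ± 0.25 and Pex5l, the neuronal channel-binding gene across from it, -0.56 ± 0.16 (SE). Trim13, a ubiquitin ligase gene across from Dleu2, measured 14.9, 18.3 and 16.1 CPM in AZ876 libraries and 11.8, 11.4 and 13.1 CPM in injury libraries. Gm14964 and its partner had fold changes of opposite sign. The lncRNA measured 9.03, 14.5 and 17.1 CPM in AZ876 libraries and 6.9, 8.51 and 10.4 CPM in injury libraries, while the synaptic gene Nrxn2 measured 147, 106 and 107 CPM in AZ876 libraries and 189, 164 and 139 CPM in injury libraries.

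**Figure D5:**
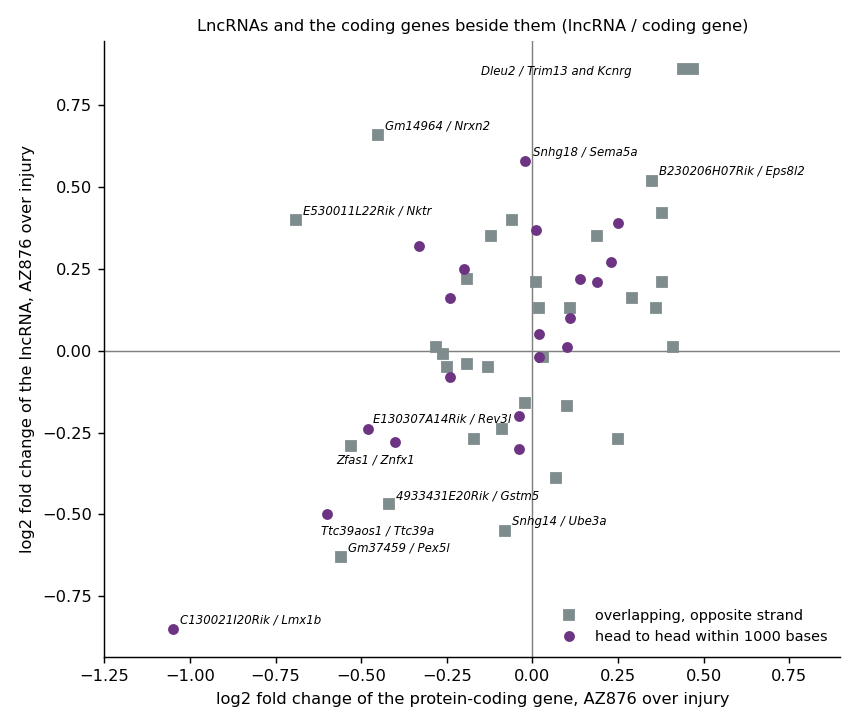
Log2 fold change, injury + AZ876 over injury, of abundant lncRNAs (vertical axis) against that of the coding genes they overlap on the opposite strand (squares) or face head to head within 1000 bases (circles); each point is 1 pair, labelled where either change exceeds 0.45 in size. Of the 20 head-to-head pairs 15 lie in the lower left or upper right, with C130021I20Rik and Lmx1b at -0.85 and -1.05.

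Together the 117 lncRNAs took 0.893%, 0.704% and 0.726% of counts in AZ876 libraries, against 0.999%, 0.862% and 0.787% in injury libraries. The means were 0.774 ± 0.103% with AZ876 and 0.883 ± 0.107% in injury (SD, n = 3 each), a difference of -0.108 percentage points (exact two-sided permutation p = 0.3, the smallest possible being 0.1). Without Meg3 the sign turned: the other lncRNAs took 0.618 ± 0.026% with AZ876 and 0.604 ± 0.044% in injury, a difference of 0.014 percentage points (exact permutation p = 0.7). The 10 most abundant held between 64.2% and 73.6% of the lncRNAs' counts in a library, and the top RNA was Meg3 in 4 libraries and Neat1 in AZ876 replicates 2 and 3.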

How the data were processed

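Total RNA of 6 spinal cord samples was sequenced, 3 with injury + AZ876 and 3 with injury. The authors deposited 1 table of raw read counts per gene, not normalised or pooled. The tools fastp 0.23.0 and HISAT2 2.1.0 are listed in the submitters' processing notes, without settings. The sources used here do not give the counter, its strand setting, the genome build or the annotation. Of 57010 rows, 148 symbols stood on more than 1 row with identical counts, and 1 row each was kept. Column totals gave the CPM of the selection rule. Differences were tested with edgeR 4.0.16 in R 4.3.3 (its default filter on low counts by group, TMM, robust quasi-likelihood F-test, 4 residual degrees of freedom, Benjamini-Hochberg adjustment over 17599 genes). The SE is the fold change divided by the root of F. The code was tested on simulated data. Alternatives were DESeq2 1.42.0, limma-voom (limma 3.58.1), DESeq2 size factors in edgeR, no filter, at least 1 CPM in 3 libraries, a replicate block, and each library left out. Single values were tested by exact permutation over 20 assignments.

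LncRNAs were named when called, among the 10 most abundant, among the 8 of smallest p in each direction, or on a list of known lncRNAs; exceptions are marked. The lncRNAs and lists were chosen with earlier results of these data known. Transcripts and exon lengths are from GENCODE M21 (115 of 117 matched), and promoters and microRNAs from RefSeq GRCm38.p6, a different build from the table's positions. Reads shared between overlapping or near-identical genes could be split or lost by the authors' counting.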

Additional observations from a re-analysis of the deposited data

How the results depend on the processing

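The count of genes called was 0 by edgeR, 178 by DESeq2, 6 without the low-count filter and 2 with the replicate block, and between 0 and 363 when 1 library was left out. The abundant lncRNAs called numbered 0 in all of these except without AZ876 replicate 1, where there were 3, so the range was 0 to 3. At an unadjusted p under 0.05 the 7 higher lncRNAs became 12 with the replicate block, where 11.3% of all genes were higher, and between 1 and 16 when 1 library was left out, lowest without AZ876 replicate 2 or 3 (3.17% and 3.67% of all genes) and highest without injury replicate 3 (12.1%). The 7 lower ones became 11 by limma-voom, where 7.88% of all genes were lower, and 17 with the replicate block, where 11.3% were. They numbered between 3 and 25 when 1 library was left out. That count was lowest without AZ876 replicate 2 or 3 (2.26% and 2.29% of all genes) and highest without AZ876 replicate 1 (13.8%). The share of counts in the lncRNAs differed by -0.108 percentage points, a value that the replicate block cannot change. It differed by 0.014 without Meg3, and by between -0.168 and -0.05 when 1 library was left out. The cause of these shifts was not tested. Same-numbered libraries correlated in their deviations at 0.39, -0.137 and 0.322, so the numbers were not taken as pairs. Of the 43 named lncRNAs, between 0 and 4 changed sign under an alternative. A group of 3 limits all calls.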
